A study of Mus musculus with 12 samples.

Results

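The Id genes and the E protein genes were followed across a mouse bone marrow RNA-seq series: Id1, Id2 and Id3, and their partners Tcf3, Tcf4 and Tcf12. The rows were taken by gene symbol, giving 6 genes of the 23383 that could be joined across the 12 libraries, and all 6 passed the filter on low counts in every comparison. E proteins are basic helix-loop-helix transcription factors that bind DNA as dimers at short sites called E-boxes (CANNTG), either with each other or with lineage factors such as Tal1. Id proteins have the helix-loop-helix but lack the basic region, so an E protein held by an Id protein does not bind DNA. In blood formation Tcf3 (whose products are E12 and E47) is known for B cell development, Tcf12 (HEB) for T cell development and Tcf4 (E2-2) for plasmacytoid dendritic cells, while Id2 is known for natural killer cells, innate lymphoid cells and classical dendritic cells.

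The series compared mice lacking an enhancer of Cebpa with wild-type mice, all C57BL/6, in 2 bone marrow populations. Cebpa encodes a transcription factor needed for the granulocyte lineage, and the enhancer lies 42 kb from it (genotype Cebpa +42kb enhancer -/-). LSK cells are the compartment that holds stem and multipotent progenitor cells, and common myeloid progenitors (CMP) are a later, myeloid-biased stage. The 4 groups were enhancer-null CMP (libraries 1, 2 and 7), wild-type CMP (1, 6 and 8), enhancer-null LSK (1, 2 and 7) and wild-type LSK (1, 6 and 8), with 3 libraries each. No Cre driver is named for the deletion. Age, sorting gates beyond the population names, and whether each library came from a separate animal are not stated, so the p-values measure the spread between these libraries. RNA was amplified with a low-input kit without molecular identifiers and sequenced in pairs of 75-base reads.

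Gene counts per library ran from 6170491 to 49149674, so 3 counts, taken here as the lowest detectable level, stood for 0.061 to 0.486 CPM, the counts scaled to library size. Such limits cover counting error only. Cebpa had 0, 3 and 0 counts in enhancer-null CMP and 1, 0 and 15 in enhancer-null LSK, against 544, 270 and 463 in wild-type CMP and 226, 118 and 39 in wild-type LSK. Even so, Cebpa did not pass the edgeR quasi-likelihood test used below. Its log2 fold change was -8.34 ± 1.60 in CMP (edgeR adjusted p = 0.0817) and -5.24 ± 1.77 in LSK (edgeR adjusted p = 0.499). The LSK marker Ly6a was at 12.9 CPM or less in every CMP library and at 134.6 CPM or more in every LSK library. Of the 9187 genes averaging 10 CPM or more, 3.57% were listed at 0 in enhancer-null CMP 1, 1.83% in wild-type LSK 6 and 1.55% in enhancer-null CMP 7, against at most 0.882% in any other library.

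The 3 Id genes lie on different chromosomes, with Id1 at chr2:152736251-152737410 on the plus strand, Id2 at chr12:25093799-25097140 on the minus strand and Id3 at chr4:136143497-136145755 on the plus strand (GRCm38, the mm10 assembly; GENCODE vM21). The most alike 120 coding bases of the 3 genes, each within 1 coding exon and encoding the helix-loop-helix, are shown because this domain is what the family shares and because similar sequence could blur the counts. Capitals mark bases identical in all 3 genes, 77 of 120 (64.2%).
Id1 (chr2:152736518-152736637): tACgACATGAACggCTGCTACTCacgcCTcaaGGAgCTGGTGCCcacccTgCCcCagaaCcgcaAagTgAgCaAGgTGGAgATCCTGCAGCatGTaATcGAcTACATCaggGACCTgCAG
Id2 (chr12:25095783-25095902): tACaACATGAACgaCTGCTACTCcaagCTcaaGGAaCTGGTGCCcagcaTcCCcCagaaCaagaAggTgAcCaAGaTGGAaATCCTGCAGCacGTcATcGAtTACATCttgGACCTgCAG
Id3 (chr4:136144002-136144121): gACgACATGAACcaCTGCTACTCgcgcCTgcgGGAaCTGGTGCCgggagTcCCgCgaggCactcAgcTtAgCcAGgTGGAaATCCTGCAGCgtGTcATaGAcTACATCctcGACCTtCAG
The longest run of identical coding bases between any pair of Id genes was 11 to 15 bases, far shorter than a 75-base read.

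Among the E protein genes, Tcf3 lies at chr10:80409514-80433647 and Tcf12 at chr9:71842688-72111871, both on the minus strand. Shown for contrast with the Id genes are the most alike 120 coding bases of Tcf3 and Tcf12, which are spread over 2 exons in each gene and encode part of the helix-loop-helix. Capitals mark the 95 of 120 bases (79.2%) identical in both genes.
Tcf3 (chr10:80410235-80412906): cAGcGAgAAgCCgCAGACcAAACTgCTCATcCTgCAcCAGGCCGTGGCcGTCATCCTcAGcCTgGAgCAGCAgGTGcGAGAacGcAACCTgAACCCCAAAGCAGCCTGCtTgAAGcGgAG
Tcf12 (chr9:71849886-71856384): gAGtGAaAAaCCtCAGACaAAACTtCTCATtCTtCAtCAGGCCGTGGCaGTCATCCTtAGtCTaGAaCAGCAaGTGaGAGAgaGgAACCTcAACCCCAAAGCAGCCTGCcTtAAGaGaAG
The longest identical coding run between any pair of E protein genes was 17 to 23 bases. Tcf4 and Tcf12 overlap other annotated genes, but none of those has a row in the count files. The strand setting of the counting is not given in the sources used here.

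Id2 was the member that differed most with genotype. Its level in wild-type CMP was 20.2, 14.0 and 13.9 CPM in libraries 1, 6 and 8. In enhancer-null CMP it was 230.0, 110.0 and 83.0 CPM in libraries 1, 2 and 7. Every enhancer-null CMP library lay above every wild-type one, the lowest at 83.0 and the highest wild-type library at 20.2 CPM. Id2 rose by a log2 fold change of 3.13 ± 0.45 (SE, n = 3 per group), an 8.77-fold difference (edgeR quasi-likelihood test, Benjamini-Hochberg adjusted p = 0.0368). It was the 1 member of 6 that passed this test, where 0.589% of the 11722 genes tested passed in either direction and 0.478% passed as higher; 12.6% of all genes and 2 members were under 0.05 before adjustment. DESeq2 likewise called Id2 and no other member, and 5.37% of all genes. Leaving out each library in turn kept the call in 2 of 6 fits, with an edgeR adjusted p of 0.0235 without enhancer-null CMP 1 and 0.0296 without enhancer-null CMP 7. With the same test the adjusted p was 0.0558 without enhancer-null CMP 2, 0.138 without wild-type CMP 1, 0.185 without wild-type CMP 6 and 0.223 without wild-type CMP 8, while the log2 fold change stayed between 2.56 and 3.40 over 13 alternatives, 7 of which passed. The edgeR adjusted p was 0.0655 in 1 fit over all 12 libraries and 0.0661 with the sex of the animals as a covariate.

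In LSK cells the difference in Id2 was in the same direction and not past the test. Wild-type LSK libraries 1, 6 and 8 held 14.6, 0.702 and 6.15 CPM. Enhancer-null LSK libraries 1, 2 and 7 held 141, 142 and 66.7 CPM. The groups did not overlap, and the lowest enhancer-null library was well above the highest wild-type one. The estimate was larger and less precise than in CMP, at a log2 fold change of 4.04 ± 0.95 (SE, n = 3 per group), a 16.5-fold difference (edgeR, unadjusted p = 0.00333, adjusted p = 0.281). No member passed in LSK, where 12 of 11619 genes (0.103%) did; 2 members were under 0.05 before adjustment, as were 7.91% of all genes. DESeq2 called 1 member in LSK, Id2, with an adjusted p of 6.44e-05, where it called 2.31% of the genes tested; over the 13 alternatives, DESeq2 included, the adjusted p ran from 6.44e-05 to 0.755. The genotype effect on Id2 was not shown to differ between the 2 populations (difference of log2 fold changes, CMP minus LSK, -0.88 ± 1.01, edgeR adjusted p = 0.940).

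**Figure D1:**
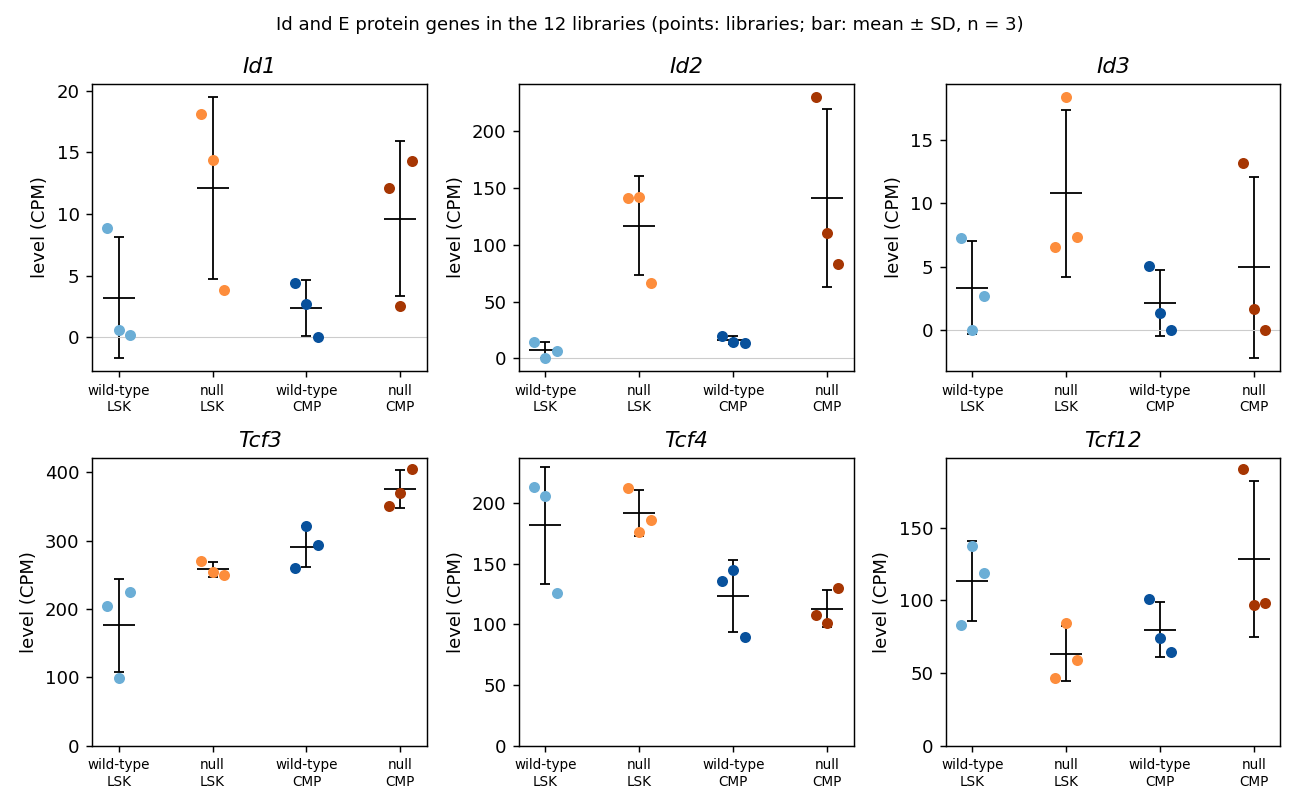
Level of each gene in CPM (vertical axes, one scale per gene) in the 4 groups; points are libraries and the bar with whiskers is the mean ± SD of 3 libraries. Id2 runs from 0.702 to 20.2 CPM in the 6 wild-type libraries and from 66.7 to 230.0 CPM in the 6 enhancer-null ones, whereas Tcf4 overlaps between genotypes in both populations.

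Between LSK and CMP of the same genotype Id2 did not pass the test. Its group means from high to low were 141 ± 78.2 CPM in enhancer-null CMP, 117 ± 43.3 in enhancer-null LSK, 16.0 ± 3.56 in wild-type CMP and 7.14 ± 6.99 in wild-type LSK (mean ± SD, n = 3). The 2 enhancer-null groups overlapped and so did the 2 wild-type groups; the gap fell between enhancer-null LSK and wild-type CMP. The log2 fold change from LSK to CMP was 1.21 ± 1.03 in wild-type cells (edgeR adjusted p = 0.575) and 0.24 ± 0.45 in enhancer-null cells (edgeR adjusted p = 0.977).

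Summed markers of several cell types also differed between genotypes, some higher and some lower in enhancer-null cells. In these bulk samples more cells of a type and more RNA per cell cannot be told apart. The LSK list (13 genes) summed to 3921 to 4473 CPM in wild-type and 2559 to 2958 in enhancer-null LSK, with none past the test. The CMP list (12 genes) summed to 6211 to 7236 CPM in wild-type and 3779 to 4746 in enhancer-null CMP, with 1 past the test as lower. In LSK it went the other way, summing to 2547 to 3033 CPM in wild-type and 3213 to 4325 in enhancer-null cells. There 3 of 12 tested CMP markers were higher, and 1 passed as higher. Mpo, a gene of that list, was at 307.1 to 443.1 CPM in wild-type and 1200.5 to 2286.5 CPM in enhancer-null LSK. The summed level of 16 T, natural killer and innate lymphoid markers was 140 to 212 CPM in wild-type CMP and 579 to 868 CPM in enhancer-null CMP, with 7 of 8 tested markers higher and 3 past the test. In LSK the sum was 286 to 351 CPM against 584 to 802, with 9 of 10 tested markers higher and 1 past the test. Tcf7 (131 to 163 against 14.1 to 20.9 CPM) and Nkg7 (198 to 326 against 62.8 to 127 CPM) gave much of the sum in enhancer-null CMP. Gata3 in LSK overlapped, at 18.2 to 27.3 CPM in enhancer-null and 19.3 to 39.8 CPM in wild-type cells. Klrb1c in CMP had a median of 0 against 0.895 CPM. Of the defining markers of those lineages, Cd3e and Tbx21 had no count in enhancer-null CMP, and Cd3d, Eomes and Tbx21 had none in enhancer-null LSK. Ncr1 had 1 count in each enhancer-null group. Wild-type LSK had no count of Ncr1 or Eomes. Mast cell and basophil markers (13 genes) summed to 484 to 602 CPM in wild-type CMP and 2406 to 2924 CPM in enhancer-null CMP, with Prss34, Cma1, Tpsb2 and Mcpt4 at 0 counts in the latter; 6 of 9 tested markers were higher and 2 passed as higher. Cpa3 gave much of that sum, at 909 to 1351 CPM against 29.8 to 64.3 in wild-type CMP. The basophil protease Mcpt8 had a median of 6.08 CPM against 8.62. The list also holds Kit, at 480 to 724 against 255 to 432 CPM, and Gata2, at 185 to 620 against 51.4 to 79.2 CPM. Fcer1a was at 8.83 to 19.8 CPM in enhancer-null and 0 to 0.392 CPM in wild-type CMP. In LSK the same list summed to 939 to 1223 CPM in wild-type and 1135 to 1653 CPM in enhancer-null cells. Mcpt4 was at 0 in enhancer-null and Tpsb2 at 0 in wild-type cells. Of 7 tested markers 5 were higher and 1 passed. Kit and Gata2, also progenitor markers, gave most of the wild-type LSK sum, at 734 to 896 and 196 to 311 CPM. In enhancer-null LSK they were at 650 to 797 and 160 to 174 CPM. Cpa3 was at 4.90 to 13.3 CPM in wild-type and 298 to 578 CPM in enhancer-null LSK. Dendritic markers (18 genes) summed to 702 to 1052 CPM in wild-type and 277 to 340 in enhancer-null CMP, and to 662 to 778 against 427 to 483 CPM in LSK, with Cd209d at 0 in both enhancer-null groups; 5 of 16 tested were higher and 1 passed as lower in CMP, and 6 of 15 were higher with none past the test in LSK. Monocyte markers (12 genes) summed to 1458 to 1750 CPM in wild-type and 183 to 299 in enhancer-null CMP, where none of 10 tested was higher and 3 passed as lower, but to 247 to 433 against 261 to 404 CPM in LSK, where 5 of 9 were higher and none passed. Late neutrophil markers (10 genes) had a median sum of 262 CPM in wild-type and 7.01 in enhancer-null CMP, and of 269 and 19.1 in LSK. None of 9 tested in CMP or of 7 in LSK was higher, and none passed. Megakaryocyte markers (9 genes) summed to 69.6 to 108 CPM in wild-type and 116 to 243 in enhancer-null CMP. In LSK they summed to 56.3 to 76.4 against 135 to 149 CPM. Of those tested 4 of 7 were higher in CMP with none past the test, and 2 of 8 in LSK, where 1 passed. Stromal and endothelial markers (10 genes) summed to 51.3 to 98.9 CPM in wild-type and 136 to 207 in enhancer-null CMP. In LSK they summed to 98.8 to 132 against 161 to 168 CPM. Of those tested 3 of 5 were higher in CMP and 2 of 3 in LSK, and none passed. Sums of erythroid markers (11 genes) overlapped in CMP. In LSK they were 1505 to 1813 CPM in wild-type and 930 to 1264 in enhancer-null cells. Of the erythroid markers tested 1 of 9 was higher in CMP but 5 of 7 in LSK, and none passed. Sums of B cell markers (10 genes) overlapped in both. The part of these cell types in the Id2 difference was not tested.

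The 89 bases that lie 162 to 250 bases upstream of the Id2 start site given by RefSeq (GRCm38.p6, chr12:25096254-25096342, minus strand) hold no annotated Id2 exon. They lie within the GENCODE span of the gene given above, in an intron of an Id2 transcript that starts farther out, and are upstream of the RefSeq start site only. They are shown because Id2 is the member that passed the test, with capitals marking an E-box, the kind of site that E proteins bind.
Id2, upstream of the RefSeq start: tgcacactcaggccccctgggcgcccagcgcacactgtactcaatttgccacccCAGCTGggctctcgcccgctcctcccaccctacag
This stretch holds 1 match to CANNTG, spelled CAGCTG, and CANNTG occurs in 33.0% of 32851 RefSeq promoters over the same 89-base window. The letters TTNNGNAA, a loose form of the site bound by C/EBP factors, were searched on both strands (TTNCNNAA on the other) and are not in this window; 16.7% of the promoters hold them there. A match to these letters describes the sequence and does not show binding.

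Id1, like Id3 a well-known target of BMP and Smad signalling, was expressed at low and uneven levels. Wild-type CMP 1, 6 and 8 held 4.43, 2.69 and 0 CPM, where 0 counts allow up to 0.194 CPM, and enhancer-null CMP 1, 2 and 7 held 12.1, 2.51 and 14.3 CPM. In LSK cells Id1 was at 8.88, 0.561 and 0.188 CPM in wild-type libraries and at 18.1, 14.4 and 3.83 CPM in enhancer-null ones. The genotypes overlapped in both populations. The log2 fold change for Id1 was 2.01 ± 1.77 in CMP (edgeR adjusted p = 0.749) and 1.93 ± 1.56 in LSK (adjusted p = 0.799), so differences of this size were not detectable with these libraries. Without wild-type LSK 1 the estimate for Id1 in LSK was 5.04 and did not pass either.

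Id3, also at low levels, had no count in 3 libraries. Wild-type CMP libraries held 5.06, 1.34 and 0 CPM and enhancer-null CMP libraries 13.2, 1.63 and 0 CPM of Id3. Wild-type LSK libraries held 7.29, 0 and 2.70 CPM, and enhancer-null LSK libraries 6.54, 18.4 and 7.37 CPM. The 0 counts allow up to 0.194 CPM in wild-type CMP 8, 0.178 in enhancer-null CMP 7 and 0.203 in wild-type LSK 6; 2 of these are among the 3 libraries with the most genes at 0 given above, and the part of such losses was not tested. The log2 fold change for Id3 was 1.19 ± 2.37 in CMP (edgeR adjusted p = 0.907) and 1.71 ± 1.69 in LSK (adjusted p = 0.849). Without enhancer-null CMP 1 the sign of the CMP estimate turned, to -1.41.

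All 3 Id genes shared 1 feature in wild-type cells: library 1 was the highest of its group for Id1, Id2 and Id3, in CMP and in LSK alike. In wild-type LSK library 1 held 14.6 CPM of Id2 against 0.702 and 6.15 CPM in libraries 6 and 8. Library 1 was also the deepest of its group. Gene counts were 32770938, 17669425 and 15470260 in wild-type CMP 1, 6 and 8, and 34080293, 14753266 and 15401802 in wild-type LSK. Of the genes averaging 10 CPM or more, 0.0218%, 0.0218% and 0.882% were at 0 in wild-type CMP 1, 6 and 8. In wild-type LSK the shares were 0%, 1.83% and 0.294%. By Xist and Y-linked genes, wild-type 1 was male and wild-type 6 and 8 female in both populations, while enhancer-null 1 and 2 were male and 7 female. The part of sex in the Id levels was not tested beyond the covariate above, and that of depth was not tested. Without wild-type LSK 1 the Id2 log2 fold change in LSK was 5.11 in place of 4.04.

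By group mean, Tcf3 had the highest level of the 6 genes per kilobase of exon in every group. It was at 260.5, 320.6 and 292.8 CPM in wild-type CMP and at 350.0, 369.6 and 405.4 CPM in enhancer-null CMP. In LSK cells Tcf3 stood at 204.5, 98.8 and 224.7 CPM in wild-type libraries and at 270.4, 254.6 and 249.2 CPM in enhancer-null ones. Every enhancer-null library lay above every wild-type library of the same population, as was the case for Id2. Over all genes tested, 11.1% were so ordered in CMP and 8.49% in LSK; 2.3% of the 11136 genes tested in both populations were so ordered in both, and Id2 and Tcf3 were 2 such genes among the 6. The differences in Tcf3 were small and did not pass the test, with a log2 fold change of 0.36 ± 0.15 in CMP (edgeR adjusted p = 0.384) and 0.58 ± 0.30 in LSK (adjusted p = 0.685). Wild-type LSK 6, the lowest library, bore on the latter: without it the estimate was 0.30.

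Tcf4 did not differ detectably between genotypes. Its levels were 135.9, 144.4 and 89.5 CPM in wild-type CMP, and 107.5, 100.9 and 130.2 CPM in enhancer-null CMP. In LSK cells they were 212.7, 205.9 and 125.8 CPM in wild-type libraries and 212.3, 176.1 and 186.0 CPM in enhancer-null ones. The genotypes overlapped in both populations. The log2 fold change for Tcf4 was -0.13 ± 0.26 in CMP (edgeR adjusted p = 0.907) and 0.11 ± 0.23 in LSK (adjusted p = 0.936), the smallest of the 6 genes in each.

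Tcf12 was the member whose estimates lay farthest apart in the 2 populations, and they had opposite signs. It was at 101.1, 74.0 and 64.4 CPM in wild-type CMP and at 190.6, 96.9 and 98.5 CPM in enhancer-null CMP. In LSK cells Tcf12 was at 83.3, 137.5 and 118.7 CPM in wild-type libraries and at 46.7, 84.5 and 59.2 CPM in enhancer-null ones. The genotypes overlapped in both, in LSK by 1 pair of libraries at 83.3 and 84.5 CPM. The log2 fold change for Tcf12 was 0.69 ± 0.35 in CMP (edgeR adjusted p = 0.497) and -0.80 ± 0.32 in LSK (unadjusted p = 0.0368, adjusted p = 0.595). The difference between them, 1.52 ± 0.48, had the smallest p of the 6 genes and did not pass (edgeR unadjusted p = 0.00796, adjusted p = 0.382). No member passed this test of the difference, with edgeR or with DESeq2, where edgeR called 37 of 12684 genes (0.292%), DESeq2 called 1.51% and 7.64% were under 0.05 before adjustment, as was 1 member.

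**Figure D2:**
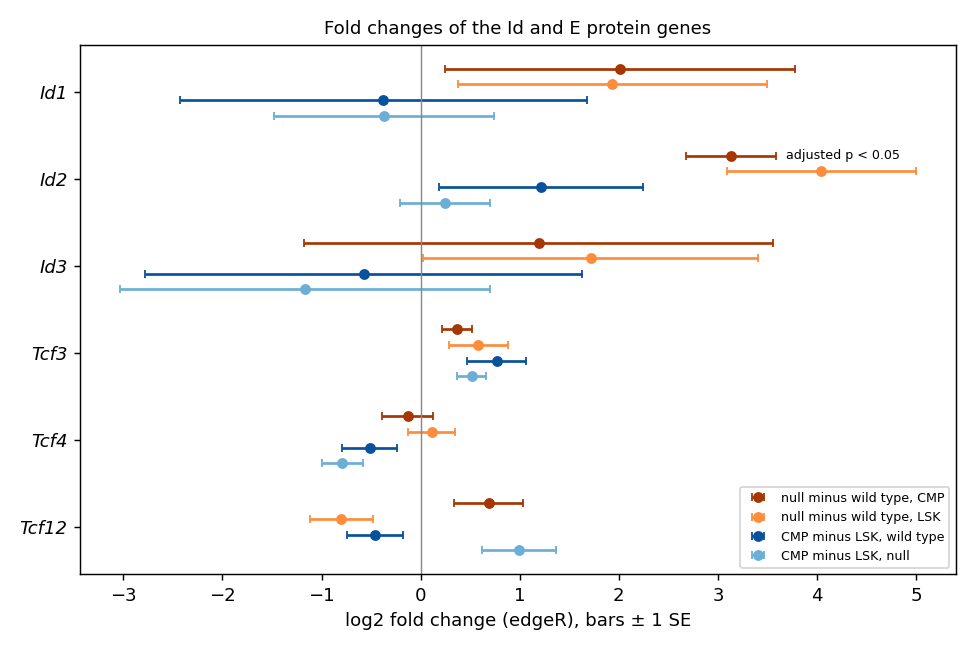
log2 fold changes of the 6 genes (horizontal axis) with bars of ± 1 SE, for enhancer-null minus wild type in CMP and in LSK and for CMP minus LSK within each genotype. Id2 in CMP (3.13) is the value past the test; Id1 and Id3 have the widest bars, and Tcf12 lies on opposite sides of 0 in CMP (0.69) and LSK (-0.80).

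The step from LSK to CMP was next compared within each genotype. In wild-type cells no member passed the edgeR test, while 4.2% of 12027 genes did, and DESeq2 called none of the 6 but 13.4% of all genes. Tcf3 was the 1 member under 0.05 before adjustment (20.5% of all genes were), with all 3 wild-type CMP libraries above all 3 wild-type LSK libraries (log2 fold change 0.77 ± 0.30, edgeR adjusted p = 0.201); 16.4% of all genes were so ordered. The remaining estimates in wild-type cells were -0.52 ± 0.28 for Tcf4, -0.46 ± 0.28 for Tcf12, -0.38 ± 2.05 for Id1 and -0.58 ± 2.21 for Id3.

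In enhancer-null cells no gene in the whole table passed the edgeR test for this step (0% of 11266), with 6.92% under 0.05 before adjustment and 1.82% called by DESeq2. All 3 E protein genes were among those under 0.05, and in each the CMP and LSK libraries did not overlap. Tcf3 was higher in every CMP library (log2 fold change 0.51 ± 0.14, edgeR adjusted p = 0.467) and so was Tcf12 (0.99 ± 0.37, adjusted p = 0.640), an order held by 8.4% of all genes. Tcf4 was lower in every CMP library (-0.79 ± 0.20, edgeR adjusted p = 0.425), as were 8.45% of all genes, and DESeq2 called Tcf4 with an adjusted p of 0.0408. Over the 13 alternatives the adjusted p for Tcf4 ran from 0.0408 to 0.99995. For the Id genes the estimates were -0.37 ± 1.11 for Id1 and -1.17 ± 1.87 for Id3, beside that of Id2 given above.

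To compare levels between genes, CPM were divided by the length of the union of annotated exons. On this scale Tcf3 gave between 84.3% and 90.2% of the summed E protein level in enhancer-null CMP and between 84.9% and 90.7% in wild-type CMP. In LSK its share lay between 84.2% and 86.2% in enhancer-null and between 59.9% and 82.0% in wild-type libraries. Id2 gave between 73.4% and 93.6% of the summed Id level in enhancer-null CMP, against 55.4% to 100% in wild-type CMP. Its share in LSK lay between 72.0% and 78.7% in enhancer-null and between 33.8% and 60.2% in wild-type libraries. By group mean per kilobase, Id2 ranked behind Tcf3 alone in both enhancer-null groups, at 57.8 and 47.8 CPM per kb beside 92.8 and 63.9 for Tcf3 in CMP and LSK. In the single library enhancer-null CMP 1, Id2 lay above Tcf3, at 94.3 against 86.7 CPM per kb. In wild-type LSK Id2 had rank 4 by group mean, at 2.93 CPM per kb. Tcf4 and Tcf12 have many annotated transcripts, and their union length is longer than any 1 transcript; with the longest transcript in place of the union, Id2 moved from rank 2 to rank 4 in wild-type CMP and kept its place in the other 3 groups.

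The ratio of the summed Id level to the summed E protein level, per kilobase, separated the genotypes in both populations. It was 0.196, 0.0987 and 0.0715 in wild-type CMP 1, 6 and 8, and 1.09, 0.475 and 0.416 in enhancer-null CMP 1, 2 and 7. In LSK cells it was 0.278, 0.0189 and 0.0617 in wild-type libraries and 0.993, 1.08 and 0.481 in enhancer-null ones. The lowest of the 6 enhancer-null values was 0.416 and the highest of the 6 wild-type values 0.278. With the longest transcript as the length, the 2 values were 0.324 and 0.193. The summed E protein level differed less, at 81.8 ± 6.91 CPM per kb in wild-type and 105 ± 5.42 in enhancer-null CMP, and at 57.5 ± 14.6 and 75.0 ± 2.70 in LSK (mean ± SD, n = 3). The ratio follows mainly from Id2, whose difference is given above, and is a description of transcript levels with no test; it says nothing of protein amounts.

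**Figure D3:**
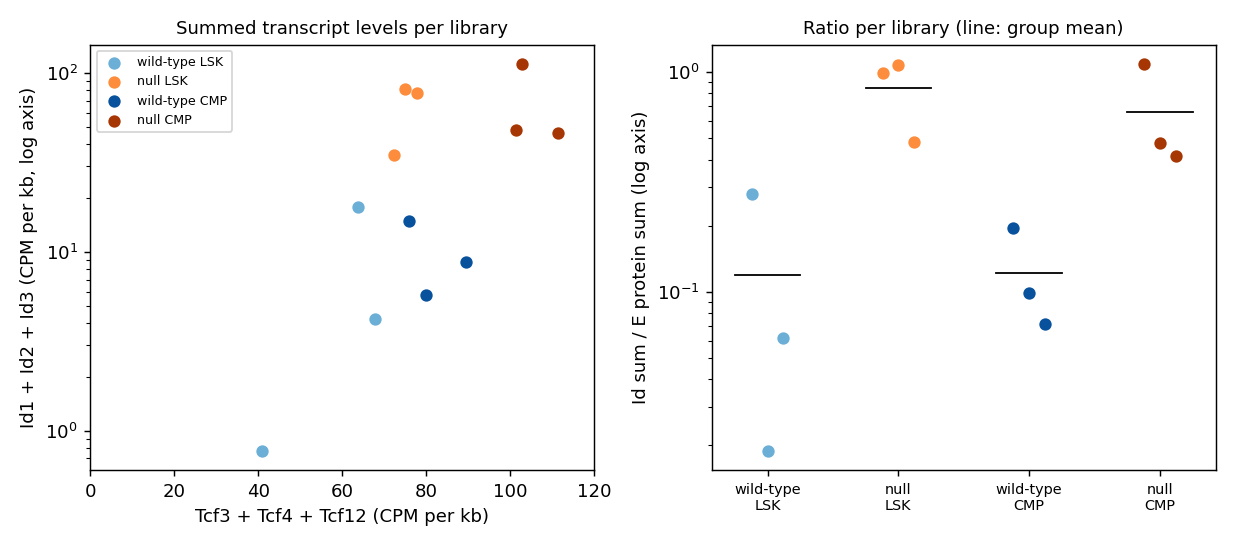
Left, summed level of the 3 Id genes (vertical log axis) against that of the 3 E protein genes (horizontal axis), both in CPM per kb of union exon, with 1 point per library. Right, their ratio per library on a log axis with a line at each group mean: the 6 enhancer-null libraries lie at 0.416 or above and the 6 wild-type libraries at 0.278 or below.

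**Figure D4:**
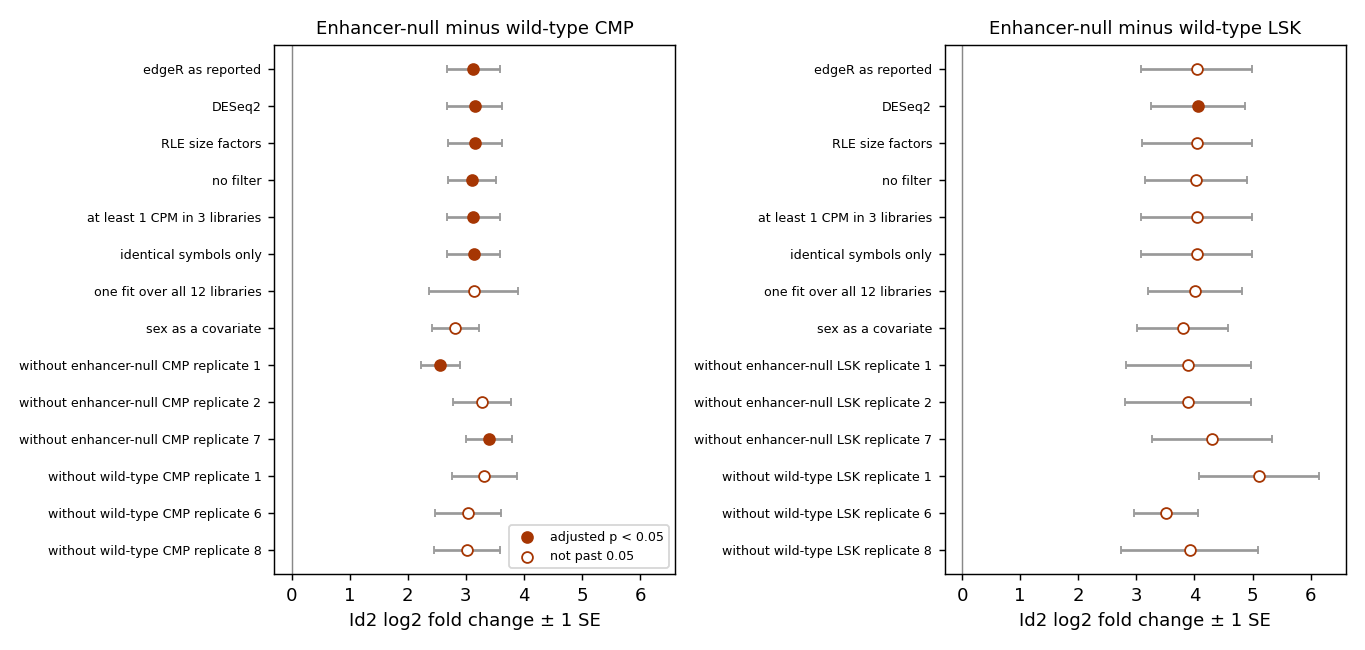
Id2 log2 fold change (horizontal axis, bars ± 1 SE) between genotypes in CMP (left) and LSK (right) as reported and under 13 alternatives each; filled points have an adjusted p under 0.05. Estimates lie between 2.56 and 3.40 in CMP and between 3.51 and 5.11 in LSK, while the adjusted p crosses 0.05 in both panels.

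The genes whose log2(CPM + 1) followed each member most closely over the 12 libraries were sought among the 10187 genes averaging 5 CPM or more. For Id2 they were Clec4e, a C-type lectin receptor (Pearson r = 0.96), Lat2, a membrane adaptor (0.96), and Pik3cd, the delta catalytic subunit of phosphoinositide 3-kinase (0.95). For Tcf3 they were Ptpn7, a tyrosine phosphatase (0.96), Tmf1 (0.96) and Idi1, an enzyme of isoprenoid synthesis (0.95). For Tcf4 they were Mn1 (0.92), Ap4s1 (0.90) and Fcgrt (0.89), and for Tcf12 Gm16973 (0.92), Rab8b (0.89) and Pet100 (0.88). For Id1 they were Rac1 (0.91), Gadd45b (0.90) and Srpk2 (0.88), and for Id3 Zfp764 (0.90), Fam103a1 (0.87) and 9130011E15Rik (0.87). These values describe 12 libraries that share the 4 groups and their depths, so part of each likeness is the group pattern itself.

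Around the members, 3 lists of known partners, targets and upstream signals were read in the same fits. Over all genes tested, edgeR called 0.589% in CMP, 0.103% in LSK, 4.2% in the wild-type step and 0% in the enhancer-null step. Under 0.05 before adjustment were 12.6%, 7.91%, 20.5% and 6.92% in the same order. DESeq2 called 5.37%, 2.31%, 13.4% and 1.82%. The first list held 26 genes of the complexes that E proteins form, such as Tal1, Lmo2, Ldb1, Gata2 and the corepressors of the Cbfa2t family. In CMP 15 were tested, 1 rose and 0 fell, with a median log2 fold change of 0.64 against -0.02 over all genes tested. The gene that rose was Cbfa2t3 (ETO2), a corepressor that binds E proteins and Tal1 complexes. It was at 106.8, 133.4 and 172.7 CPM in wild-type CMP and at 630.9, 423.6 and 477.5 CPM in enhancer-null CMP (log2 fold change 1.89 ± 0.24, edgeR adjusted p = 0.0232). Its enhancer-null CMP libraries were all higher, an order held by 11.1% of all genes tested. Its adjusted p was 0.0502 without enhancer-null CMP 7, 0.0899 without wild-type CMP 1, 0.141 without wild-type CMP 6, 0.0922 without wild-type CMP 8 and 0.0606 with sex as a covariate (all edgeR). Another 6 of the list were under 0.05 before adjustment, as were 12.6% of all genes.

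In LSK 15 genes of this list were tested, 0 rose and 1 fell, with a median of 0.14 against -0.01 over all genes. The gene that fell was Lmo2, the bridging protein between Tal1 and E protein dimers and Ldb1. It was at 1070, 1067 and 1094 CPM in wild-type LSK and at 345.6, 297.4 and 408.6 CPM in enhancer-null LSK (log2 fold change -1.59 ± 0.13, edgeR adjusted p = 0.0128). Its edgeR adjusted p was 0.145 without enhancer-null LSK 1, 0.0962 without enhancer-null LSK 2, 0.0742 without wild-type LSK 1, 0.118 without wild-type LSK 8 and 0.0545 with sex as a covariate, while the log2 fold change stayed between -1.73 and -1.48.

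In the wild-type step from LSK to CMP 16 of the list were tested and 3 fell: Lmo2 (log2 fold change -1.43 ± 0.12, edgeR adjusted p = 0.00268), Gata2, a zinc finger factor of stem and mast cells (-1.94 ± 0.28, adjusted p = 0.0164), and Cbfa2t3 (-1.07 ± 0.20, adjusted p = 0.0333). The call for Gata2 was lost without wild-type CMP 1, 6 or 8 in turn (edgeR adjusted p = 0.0650, 0.0792 and 0.0564). That for Cbfa2t3 was lost without wild-type CMP 1, 6 or 8 or wild-type LSK 1 or 8 (edgeR adjusted p = 0.102, 0.139, 0.0639, 0.104 and 0.0804). In the enhancer-null step 14 were tested and edgeR called none. Before adjustment 4 were under 0.05 (6.92% of all genes were), and DESeq2 called 2 (1.82% of all genes).

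The second list held 32 genes reported to respond to E proteins, mostly genes of early lymphoid cells. In CMP 23 were tested, 1 rose and 0 fell, and the median was -0.62 against -0.02 over all genes. The one that rose was Socs3, an inhibitor of cytokine signalling, at 9.05, 9.35 and 3.50 CPM in wild-type CMP and 298.7, 234.9 and 252.1 CPM in enhancer-null CMP (log2 fold change 5.16 ± 0.43, edgeR adjusted p = 0.00619), and it passed under all 13 alternatives. In LSK 20 were tested and edgeR called none. Before adjustment 4 were under 0.05 (7.91% of all genes were), and DESeq2 called 3 (2.31% of all genes). The median was 0.28 against -0.01. The smallest p belonged to Dntt, the terminal transferase of lymphoid progenitors, at 422.4, 627.9 and 425.4 CPM in wild-type and 1439, 741.7 and 1357 CPM in enhancer-null LSK. Its enhancer-null libraries were all higher, an order held by 8.49% of all genes, and it did not pass the test (log2 fold change 1.30 ± 0.27, edgeR adjusted p = 0.201).

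Within the wild-type step 25 of these target genes were tested, of which 1 rose and 0 fell: Gfi1b, an erythroid and megakaryocyte repressor (2.36 ± 0.32, edgeR adjusted p = 0.0129). Gfi1b lost its call without wild-type CMP 6 or 8 or wild-type LSK 1 (edgeR adjusted p = 0.0846, 0.0687 and 0.0516). In the enhancer-null step 19 were tested and edgeR called none. Before adjustment 5 were under 0.05 (6.92% of all genes were), and DESeq2 called 4 (1.82% of all genes).

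The third list held 34 genes of BMP, TGF-beta and Smad signalling, which is known to act upstream of the Id genes. In CMP 24 were tested, 1 rose and 0 fell, with a median of 0.55 against -0.02 over all genes. Tgfbr2, the type II TGF-beta receptor, rose from 21.6, 25.9 and 25.7 CPM in wild-type CMP to 153.0, 104.0 and 89.4 CPM in enhancer-null CMP (log2 fold change 2.24 ± 0.31, edgeR adjusted p = 0.0303). Its edgeR adjusted p was 0.0558 without enhancer-null CMP 2, 0.177, 0.176 and 0.194 without wild-type CMP 1, 6 and 8, and 0.104 with sex as a covariate. In LSK 22 were tested and edgeR called none. Before adjustment 3 were under 0.05 (7.91% of all genes were), and DESeq2 called none (2.31% of all genes). The smallest p belonged to Tgfb1, a ligand of that receptor (0.59 ± 0.20, edgeR adjusted p = 0.519). Its enhancer-null libraries were all higher, an order held by 8.49% of all genes.

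During the wild-type step 23 of the signalling genes were tested and 2 fell, namely Smad7, an inhibitory Smad (-2.46 ± 0.30, edgeR adjusted p = 0.0103), and Tgfbr2 (-1.60 ± 0.28, adjusted p = 0.0250). Smad7 had an edgeR adjusted p of 0.0542 without wild-type CMP 8. Tgfbr2 lost its call without wild-type CMP 1, 6 or 8 or wild-type LSK 1 or 8 (edgeR adjusted p = 0.112, 0.115, 0.0908, 0.0772 and 0.0893). In the enhancer-null step 23 were tested and edgeR called none. Before adjustment 1 was under 0.05 (6.92% of all genes were), and DESeq2 called none (1.82% of all genes).

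**Figure D5:**
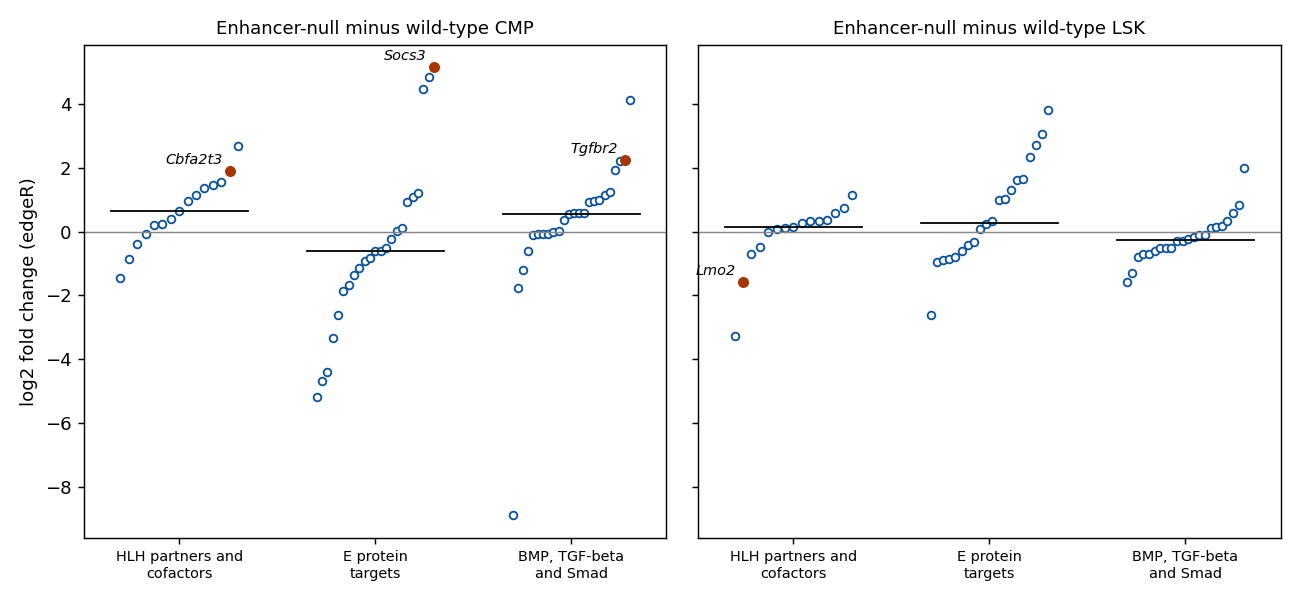
Each point is a tested gene of a list, ordered by its log2 fold change (vertical axis) between genotypes in CMP (left) and LSK (right); filled, named points have an adjusted p under 0.05 and the line is the list's median. In CMP Cbfa2t3 (1.89), Socs3 (5.16) and Tgfbr2 (2.24) passed, and in LSK Lmo2 (-1.59).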

How the data were processed

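The deposited values are read counts per gene symbol, which the authors made, per the submitters' processing notes, with TopHat2 2.0.4, TopHat, Bowtie and HTSeq on mm10. The annotation, the counting mode and strand use were not given in the sources used here. Of the counts in each file, 37.2% to 46.9% were in rows naming no gene and were left out. The file of wild-type CMP 6 listed 23456 symbols and the other 11 listed 24420; 22779 symbols were identical and 604 were linked through older names, which left 0.075% to 0.303% of gene counts unjoined.

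The counts were tested with edgeR 4.0.16 (R 4.3.3; TMM scaling, filterByExpr with a minimum count of 10, robust quasi-likelihood, Benjamini-Hochberg over all genes tested, threshold 0.05), fitting the groups compared alone. The difference of the genotype effect used all 4 groups. CPM were scaled by TMM over the 12 libraries. DESeq2 1.42.0, other filters and scalings, and leaving out each library were alternatives; the test was also checked on simulated data. Standard errors were taken from the log2 fold change and its quasi-likelihood F statistic.

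All 6 members were named. Of each list, up to 4 genes past the threshold with the smallest adjusted p were named per genotype comparison (otherwise the 1 with the smallest p) and up to 3 per step, along with the 3 genes most alike each member. The members and lists were chosen with earlier results of these data known. A gene of the lists is not reported here and stands in none of their counts. No 2 libraries were identical, and replicates differed beyond sampling noise (chi-square per degree of freedom 43.1 to 183).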

Additional observations from a re-analysis of the deposited data

Results flagged for a closer look

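Gata2, a partner of Tal1 and E protein complexes, had a genotype effect that differed between CMP and LSK by a test of the difference itself. It was at 620.4, 374.5 and 184.6 CPM in enhancer-null CMP and 51.4, 51.9 and 79.2 CPM in wild-type CMP, but at 159.5, 174.5 and 162.3 CPM in enhancer-null LSK and 209.7, 311.4 and 195.8 CPM in wild-type LSK. By group mean Gata2 was thus higher in enhancer-null CMP and lower in enhancer-null LSK than in wild-type cells. Neither genotype effect passed the edgeR test by itself. The log2 fold change was 2.69 ± 0.44 in CMP (edgeR adjusted p = 0.0531) and -0.50 ± 0.21 in LSK (edgeR adjusted p = 0.625). The difference of log2 fold changes was 3.22 ± 0.51 (edgeR adjusted p = 0.0200). It passed under 13 of 19 alternatives, with a range of 2.65 to 3.56. The edgeR adjusted p was 0.0679 and 0.0842 without wild-type CMP 1 and 6, and 0.0731, 0.0719 and 0.0656 without enhancer-null LSK 1, 2 and 7; it was 0.108 with the replicate number as a block. Gata2 was named here after its values were seen, and it is also a mast cell and basophil marker; the part of such cells was not tested.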

How the results depend on the processing

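The count of members past the test for genotype in CMP went from 1 to 0 in 1 fit over all 12 libraries and with sex as a covariate, and ran from 0 to 1 when each library was left out. With DESeq2 it went from 0 to 1 in LSK (Id2) and from 0 to 1 in the enhancer-null step (Tcf4). Estimates that turned sign were all short of the threshold. Id3 in CMP was -2.00 with sex as a covariate. The other sign changes came with 1 library left out, over which the log2 fold change ran from -1.41 to 2.83 for Id3 in CMP and from -0.13 to 0.25 for Tcf4 in LSK. In the wild-type step it ran from -1.25 to 2.68 for Id1 and from -2.29 to 0.71 for Id3. In the enhancer-null step it ran from -0.77 to 0.084 for Id1 and from -0.29 to 0.52 for Id2. The difference between populations ran from -2.98 to 0.84 for Id1, from -3.17 to 1.09 for Id3 and from -0.50 to 0.096 for Tcf3. The cause was not tested.

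Over all genes, the 69 calls in CMP became 7 to 92 with a library left out, 629 with DESeq2, 270 with no filter, 232 in 1 fit over all 12 libraries and 31 with sex as a covariate. The 12 in LSK became 1 to 21, 268, 39, 26 and 3 in the same order. The 505 of the wild-type step became 54 to 880 with a library left out and 1609 with DESeq2, and the 0 of the enhancer-null step became 205 with DESeq2, 9 with no filter and 37 in 1 fit. The 37 of the difference became 12 to 107 with a library left out, 192 with DESeq2 and 68 with no filter.

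Of the list counts, DESeq2 moved that of E protein partners from 1 to 5 in CMP and from 3 to 6 in the wild-type step, that of E protein targets from 1 to 7 in CMP, from 0 to 3 in LSK and from 1 to 5 in the wild-type step, and that of BMP, TGF-beta and Smad genes from 1 to 2 in CMP and from 2 to 4 in the wild-type step. With no filter 5 partners and 2 targets passed in CMP and 4 signalling genes in the wild-type step. Over all genes that fit called 270 in CMP and 717 in the wild-type step. In 1 fit over all 12 libraries 4 partners and 2 targets passed in CMP, and 5 partners and 2 targets in the wild-type step. Over all genes it called 232 and 482. Without wild-type LSK 6, 1 target passed in LSK and 3 in the wild-type step. With a library left out, calls over all genes ran from 1 to 21 in LSK and from 54 to 880 in the wild-type step, so these list counts are not read as a result about the lists.

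Same-numbered CMP and LSK libraries deviated together weakly, with correlations of 0.049, -0.0054 and 0.043 in enhancer-null and 0.093, -0.035 and 0.051 in wild-type cells. The sex read from Xist and Y-linked genes agreed between every CMP library and the LSK library of the same number. Whether such libraries share an animal is not stated, and correlations over 3 libraries per group cannot decide it. The main tests of the steps and of the difference did not pair the samples by number. With the replicate number as a block, 0 members passed in either step or in the difference, as without it. The block moved calls over all genes from 505 to 132 in the wild-type step and from 37 to 7 in the difference. In the wild-type step it left 1 partner and 1 signalling gene called, and the target Gfi1b kept its call (edgeR adjusted p = 0.0466). Gata2 had an adjusted p of 0.108 in the difference with the block (edgeR).

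The estimates were least precise for the low genes. Id1 and Id3 had standard errors of 1.56 to 2.37 on the log2 scale between genotypes, so changes of severalfold could not be seen. The part of depth in this was not tested. The biological coefficient of variation was 0.719 to 0.823.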
